A study of Homo sapiens with 21 samples.

Results

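The 10 genes described here encode the apelin receptor *APLNR* and its ligands *APELA* and *APLN*, the VEGF receptors *KDR* and *FLT1*, the PDGF receptors *PDGFRA* and *PDGFRB* with the ligand *PDGFA*, the chemokine receptor *CXCR4*, and the stem cell factor receptor *KIT*. They were chosen by name, and every transcript carrying one of these names was taken from the 6 tables of transcript changes in the series. Of the 10 genes, 9 had a listed transcript and *APLN* had none. The 9 genes contributed 22 transcripts and 57 entries, of 21537 transcripts, 11851 gene names and 36579 entries in the whole series.

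Poly-A RNA was sequenced from PGP1, an established human induced pluripotent stem cell (iPSC) line, at 5 wild-type stages of heart muscle differentiation. These were the iPSC itself, then mesoderm, called M, then cardiac mesoderm, called CMes, then the cardiac progenitor, called CP, and last the cardiomyocyte, called CM. The other 2 groups were CMs from *UBE2B*-/- strain 1 and *UBE2B*-/- strain 2, called line 1 and line 2 here, which lack an E2 enzyme of histone H2B monoubiquitination. There were 3 libraries for each of the 7 groups, and those of a group came from separate differentiation runs. All cells were PGP1 and were driven by the Wnt activator CHIR99021 followed by the Wnt inhibitor IWP4, and CMs were selected with lactate once they beat. The lines came from separate editing experiments by different delivery methods and from picked colonies, were plated at a higher density than wild type, and were sequenced only from cultures that beat. Any property of a single clone therefore cannot be told apart from the loss of *UBE2B* within a line.

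These genes act early in the mesoderm that makes heart and vessels. Apelin receptor is a G protein-coupled receptor that mesendoderm cells carry as they leave the primitive streak, and APELA (also called ELABELA or Toddler) is its embryonic ligand. KDR and FLT1 are receptor tyrosine kinases for VEGF, with FLT1 often acting as a decoy in its soluble form, and KDR together with PDGFRA is widely used to sort cardiac mesoderm from differentiating stem cells. PDGFRB marks mural and mesenchymal cells, KIT marks several stem and progenitor cells, and CXCR4 guides migrating mesendoderm.

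On GRCh38, *PDGFRA* (chr4:54229280-54298245), *KIT* (chr4:54657267-54740783) and *KDR* (chr4:55078481-55125595) lie side by side. The stretch between *PDGFRA* and *KIT* is 359021 bases and that between *KIT* and *KDR* is 337697 bases, and *KDR* is on the opposite strand. *APELA* (chr4:164877178-164898965) is further along the same chromosome, which holds 4 of the 10 genes. *APLNR* is at chr11:57233577-57237250, *FLT1* at chr13:28300346-28495145, *PDGFRB* at chr5:150113839-150155872, *PDGFA* at chr7:497258-520296, *CXCR4* at chr2:136114349-136119177 and *APLN* at chrX:129645259-129654956.

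Sequences are shown for 3 genes whose transcripts differ in what they encode or share one short product. They were read from GENCODE 44 transcripts on GRCh38, and transcript names are those of that release. *APELA* encodes a secreted peptide hormone of 54 codons. The coding sequence is the same in APELA-202, APELA-203 and APELA-204, and its start and stop codons are in capitals.
APELA-202: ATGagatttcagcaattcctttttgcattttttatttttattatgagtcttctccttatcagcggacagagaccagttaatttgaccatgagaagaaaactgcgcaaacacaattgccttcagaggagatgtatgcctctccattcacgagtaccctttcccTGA

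*KIT* has 2 listed transcripts, KIT-201 with 976 codons and KIT-202 with 972 codons. KIT-202 lacks a stretch of 12 coding bases, at chr4:54726039-54726050 on the plus strand, which is in capitals below. The transcripts also differ by 3 coding bases found only in KIT-201, at chr4:54731328-54731330, and by 3 found only in KIT-202, at chr4:54703721-54703723.
KIT-201: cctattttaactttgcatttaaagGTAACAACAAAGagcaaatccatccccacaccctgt
KIT-202: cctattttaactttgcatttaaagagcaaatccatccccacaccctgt

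*FLT1* has a full-length listed transcript, FLT1-201, with 1338 codons, and 2 shorter ones. FLT1-207 has 687 codons and FLT1-204 has 733, and both end before the exons of the transmembrane and kinase parts, as in the known soluble receptors. Below, bases in lower case are shared with FLT1-201 and capitals mark the first bases after the transcripts part. The capitals of FLT1-207 are at chr13:28389760-28389795 and those of FLT1-204 at chr13:28368628-28368663, on the minus strand, and each is followed by FLT1-201 at the same point.
FLT1-207: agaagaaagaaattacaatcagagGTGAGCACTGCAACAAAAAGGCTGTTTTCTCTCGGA
FLT1-201: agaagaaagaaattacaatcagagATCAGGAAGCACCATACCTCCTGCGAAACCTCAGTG
FLT1-204: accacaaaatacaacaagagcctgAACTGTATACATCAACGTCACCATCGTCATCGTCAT
FLT1-201: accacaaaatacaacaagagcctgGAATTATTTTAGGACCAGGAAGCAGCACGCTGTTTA

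The tables stop at a q-value of 0.05 and hold no value per library, so neither the value of each sample nor the depth of each library is known here. A level is a group mean of estimated counts over 3 libraries, recovered from the mean log count and the change, and a range in brackets is that level minus and plus 1 standard error of the authors' fit. A change is a log2 difference with its standard error (SE), positive when the later stage or the mutant is higher. A transcript was called with a q-value up to 0.05 in the Wald test of Sleuth and a change past a fold limit of 1.79. A transcript that is not listed did not pass the q-value limit or was not tested, which is no evidence that it did not change. The spread between replicates is the residual standard deviation (SD) of a transcript, and it ran from 0.127 to 2.27 on the log2 scale over the 51 entries of these genes at the stage transitions, with a median of 0.376. The calls rest on the normal distribution of that test. With a t distribution on 4 degrees of freedom, only 3 member transcripts were called, all lower at CM than at CP, and 0 up to the CP stage. In bulk RNA, fewer cells of a type and less RNA per cell cannot be told apart.

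The stage labels were checked with marker genes. From iPSC to M, 3 of 5 primitive streak and mesoderm markers rose (*TBXT*, *MIXL1* and *EOMES*). Of 5 pluripotent markers, 1 was called lower at this step (*L1TD1*), and *POU5F1*, *SOX2* and *NANOG* were not listed. In the table from M to CMes, *POU5F1* still stood at 10516 estimated counts at M. From M to CMes, 3 of 5 cardiac mesoderm markers rose, and from CP to CM all 6 cardiomyocyte markers rose. The endothelial and blood progenitor list had at most 2 of its 10 genes listed in any comparison, and *PECAM1*, *CDH5* and *ETV2* were never listed.

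From iPSC to M, the listed members fell without exception. The 9 listed transcripts belong to *APELA*, *FLT1*, *PDGFRA* and *PDGFRB*, all 9 were called lower and 0 were called higher, with a median change of -2.65. Over all transcripts tested, 1.62% were called lower and 1.24% higher. The 10 genes have 80 annotated transcripts, so the 9 are 11.2% of those annotated, although how many of the 80 were tested is not known. *APLNR*, *KDR*, *PDGFA*, *CXCR4* and *KIT* were not listed at this transition.

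The ligand transcript APELA-202 went from 2975 estimated counts (2234 to 3962) in iPSCs to 430 (323 to 574) at M. It fell by 2.79 (SE 0.58, q-value 1.26e-04), which is 6.90-fold, with a residual SD of 0.716. The shorter coding transcript APELA-204 fell by 2.65 (SE 0.56), from 81.4 to 12.6 estimated counts. APELA-203, annotated as a target of nonsense-mediated decay, fell by 4.37 (SE 1.29) to 1.54 estimated counts. APELA-202 therefore held most of the *APELA* signal at both stages, 85.4% of the listed estimated counts per kilobase in iPSCs and 87.6% at M.

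Among the VEGF receptors, the soluble form FLT1-207 was the highest *FLT1* transcript in iPSCs, at 2402 estimated counts (2147 to 2687), and stood at 583 (521 to 653) at M. It fell by 2.04 (SE 0.23, q-value 2.50e-16). The full-length FLT1-201 fell by 1.53 (SE 0.28), from 1596 to 554 estimated counts, and FLT1-204 by 1.26 (SE 0.30), from 274 to 114. Per kilobase, FLT1-207 and FLT1-204 together made up 67.3% of the 3 listed *FLT1* transcripts in iPSCs and 62.2% at M.

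Both PDGF receptors were low at M. PDGFRB-201 went from 261 estimated counts (225 to 302) in iPSCs to 33.0 (28.4 to 38.3) and fell by 2.96 (SE 0.30, q-value 3.74e-20). PDGFRA-201, the full-length receptor transcript, fell by 1.80 (SE 0.38, q-value 1.66e-04), from 102 to 28.8 estimated counts. The retained-intron transcript PDGFRA-205 fell by 3.06 (SE 0.95), from 48.2 to 5.35 estimated counts. Per kilobase, PDGFRA-205 had 42.05 estimated counts in iPSCs and PDGFRA-201 had 15.95. At M the 2 transcripts were close in level per kilobase, at 4.67 and 4.52 estimated counts, and the difference between them was not tested.

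**Figure D1:**
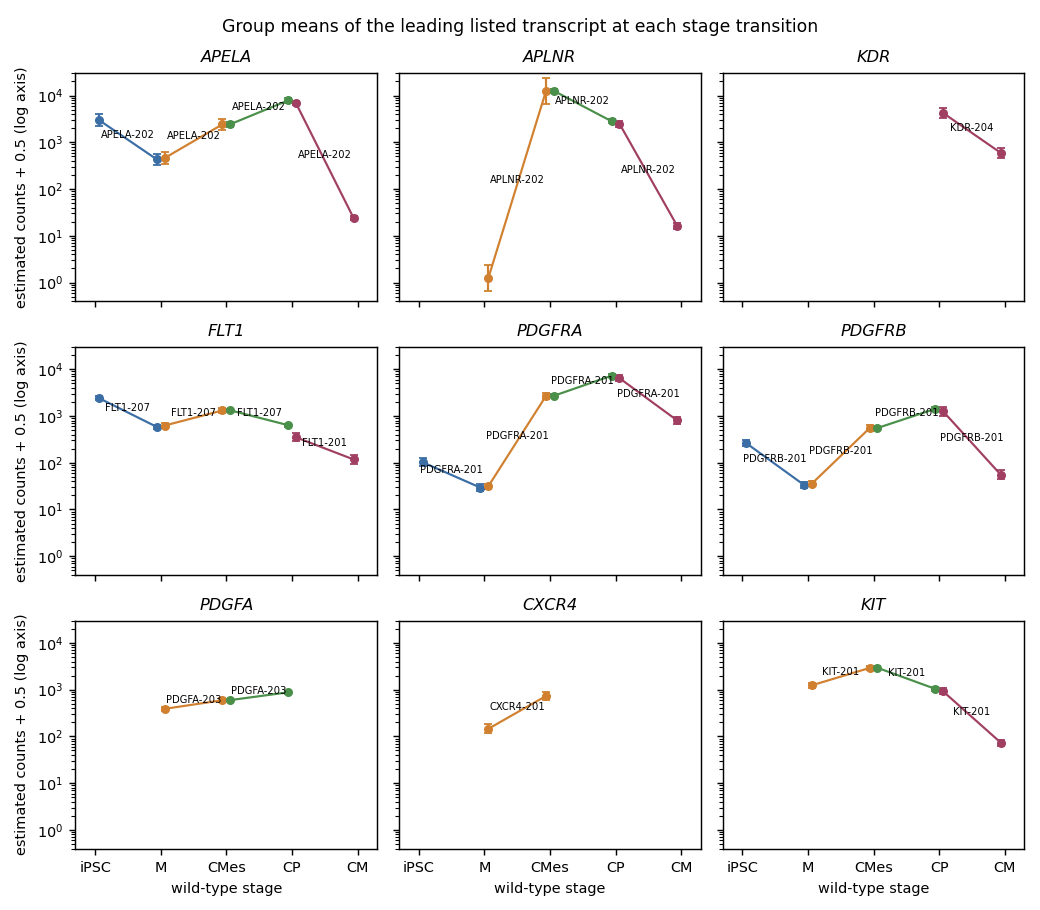
Group mean of the leading listed transcript of each gene, as estimated counts plus 0.5 on a log axis, at the wild-type stages; each coloured segment is 1 stage transition with its own scale, joining the means of 3 libraries per stage, and bars are 1 SE of the fit. *APLNR* spans the widest range, from 0.744 estimated counts at M to 12500 at CMes, and a missing segment means that the gene was not listed there.

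From M to CMes, the direction turned. Of 13 listed transcripts in 8 genes, 12 were called higher, 0 lower and 1 was under the fold limit, with a median change of 2.39. Over all transcripts tested, 3.81% were called higher and 2.65% lower, and the 12 are 15% of the annotated transcripts of these genes. *APELA*, *APLNR*, *FLT1*, *PDGFRA*, *PDGFRB*, *CXCR4* and *KIT* rose, and *APLN* and *KDR* were not listed. Markers of other cell types rose at this step too. Of the mesenchymal and mural list 7 of 10 were called higher and 0 lower, with a summed level of 1137 estimated counts at M and 6608 at CMes, and of the endoderm list 4 of 6 were called higher, with sums of 105 and 2762. Their part in the member changes was not tested.

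The receptor transcript APLNR-202 was near 0 at M, with 0.744 estimated counts (0.149 to 1.88), and reached 12500 (6529 to 23934) at CMes. Its fitted change was 13.30 (SE 1.32, q-value 3.16e-21) with a residual SD of 1.62. Because M was under 3 counts, the fitted value depends on the 0.5 added to each count, and the ratio with M set to 3 counts was 4167. The ligand transcript APELA-202 rose by 2.39 (SE 0.58, q-value 8.15e-04), from 460 to 2416 estimated counts. Receptor and ligand of the apelin pathway thus rose at the same transition, one from near 0 and the other from a clearly detected level.

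PDGFRA-201 went from 30.8 estimated counts (27.1 to 35.1) at M to 2686 (2364 to 3051) at CMes. The rise of 6.42 (SE 0.26, q-value 4.79e-130) was 85.7-fold with a residual SD of 0.219. The short coding transcript PDGFRA-206 and the retained-intron transcript PDGFRA-207 were at 0 at M in all 3 libraries. At CMes they had 28.7 and 23.9 estimated counts, at least 9.56-fold and 7.95-fold higher when 3 counts per library are taken as the floor. PDGFRB-201 rose by 3.94 (SE 0.28, q-value 1.69e-42), from 35.3 to 549 estimated counts.

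The ligand transcript PDGFA-203 changed least. It stood at 388 estimated counts (352 to 429) at M and 594 (538 to 656) at CMes, a change of 0.61 (SE 0.20, q-value 0.0311) that was under the fold limit. The ligand thus differed by 1.53-fold where the receptor transcript PDGFRA-201 rose by 85.7-fold.

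CXCR4-201 was listed at this transition alone. It rose by 2.33 (SE 0.44, q-value 4.64e-06), from 145 estimated counts (117 to 180) to 733 (591 to 909). KIT-201 rose by 1.23 (SE 0.22, q-value 1.70e-06), from 1240 to 2914 estimated counts, and KIT-202 by 1.38 (SE 0.20), from 244 to 634. The form without the 12 bases was 16.5% of the 2 *KIT* transcripts per kilobase at M and 17.9% at CMes.

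The listed *FLT1* transcripts were the short forms, and both rose. FLT1-204 rose by 2.09 (SE 0.27, q-value 6.34e-13), from 122 to 521 estimated counts. FLT1-207 rose by 1.07 (SE 0.26, q-value 0.00114), from 624 to 1312. The full-length FLT1-201 was not listed here, and the difference between the forms was not tested.

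From CMes to CP, the members went separate ways. Of 12 listed transcripts in 7 genes, 5 were called higher, 5 lower and 2 were under the fold limit. Over all transcripts tested, 3.8% were called higher and 2.63% lower, against 6.25% of the annotated transcripts of these genes in each direction. *APELA*, *PDGFRA* and *PDGFRB* rose while *APLNR*, *FLT1* and *KIT* fell, and *APLN*, *KDR* and *CXCR4* were not listed.

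The apelin ligand and its receptor moved in opposite directions. APELA-202 rose by 1.69 (SE 0.23, q-value 1.03e-11), from 2432 estimated counts (2174 to 2720) to 7839 (7008 to 8767). APLNR-202 fell by 2.16 (SE 0.22, q-value 1.92e-21), from 12580 estimated counts (11321 to 13979) to 2817 (2535 to 3130). The residual SDs were 0.280 and 0.264, so both changes were larger than the spread between replicates. APELA-201, a transcript with no defined coding sequence, was at 0 at CMes and had 18.3 estimated counts at CP, at least 6.09-fold higher at the floor of 3 counts.

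Both PDGF receptors continued upward. Mesenchymal and mural markers rose at the same step, with 7 of 10 called higher. Their leading listed transcripts summed to 7510 and 85757 estimated counts. Of the endoderm list 4 of 6 were called higher and 1 lower, with sums of 2790 and 25853 on the same basis. The part of either list in the member changes was not tested. PDGFRA-201 rose by 1.43 (SE 0.16, q-value 2.34e-17), from 2703 estimated counts (2501 to 2921) to 7274 (6731 to 7861). PDGFRB-201 rose by 1.36 (SE 0.22, q-value 4.28e-08), from 553 to 1421. PDGFA-203 was at 598 and 877 estimated counts, with a change of 0.55 (SE 0.12, q-value 1.19e-04) that was again under the fold limit.

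*KIT* and *FLT1* fell in every called form. KIT-201 fell by 1.495 (SE 0.23, q-value 1.74e-09), from 2932 to 1040 estimated counts, and KIT-202 by 1.18 (SE 0.27), from 638 to 282. FLT1-204 fell by 1.67 (SE 0.24, q-value 2.05e-10) and FLT1-207 by 1.05 (SE 0.15, q-value 6.06e-11). The full-length FLT1-201, with 694 and 395 estimated counts, changed by -0.81 (SE 0.14, q-value 4.13e-07), under the fold limit. Short forms made up 79.6% of the listed *FLT1* transcripts per kilobase at CMes and 73.4% at CP.

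*PDGFRA* and *KIT*, which are neighbours on chromosome 4, therefore rose together from M to CMes and parted from CMes to CP.

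**Figure D2:**
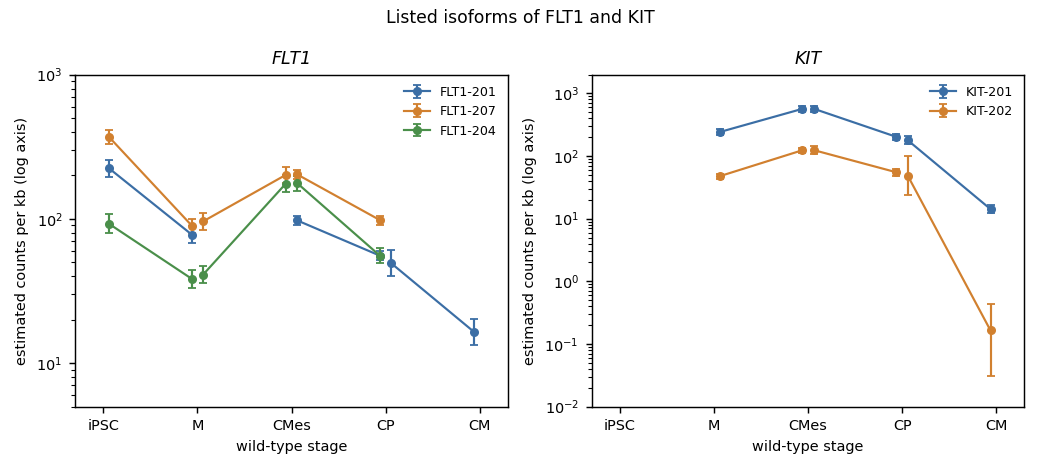
Listed transcripts of *FLT1* (left) and *KIT* (right) as estimated counts per kilobase of transcript on log axes at the wild-type stages, with 1 SE of the fit; each segment joins 2 stages of 1 transition. FLT1-207 lies above FLT1-201 wherever both were listed, and KIT-202 falls from 48.7 estimated counts per kilobase at CP to 0.164 at CM.

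From CP to CM, every listed member transcript fell. All 17, from 7 genes, were called lower and 0 higher, with a median change of -4.95, while the median of all transcripts listed at this transition was 0.63. Over all transcripts tested, 6.99% were called lower and 8.25% higher, and the 17 are 21.2% of the annotated transcripts of these genes. The genes were *APELA*, *APLNR*, *KDR*, *FLT1*, *PDGFRA*, *PDGFRB* and *KIT*, and *APLN*, *PDGFA* and *CXCR4* were not listed. Over the same transition the summed level of the leading listed transcripts of the cardiomyocyte markers went from 10167 to 390211 estimated counts, and that of 5 listed endoderm markers, all lower, from 17215 to 747. The leading listed transcripts of 9 mesenchymal and mural markers went from 44905 to 27630 in sum, with 4 called higher and 5 lower. Here *COL1A1* was counted as higher by a transcript with 45.4 estimated counts at CP and 135.5 at CM. Its transcript with 33499 at CP in the table from CMes to CP was not listed. The sum of 44905 and the earlier 85757 at CP therefore cover different transcripts. The endothelial and blood progenitor list had 2 of 10 genes listed, *TEK* and *EGFL7*, both called lower, and their sum went from 966 to 183. The CMs had also been selected with lactate, and the part of cell composition in the fall was not tested.

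Among the leading transcripts, the apelin ligand and receptor fell furthest. APELA-202 went from 6941 estimated counts (6155 to 7828) at CP to 23.6 (20.8 to 26.6) at CM. It fell by 8.17 (SE 0.25, q-value 1.69e-239), which is 289-fold, with a residual SD of 0.218. APLNR-202 fell by 7.26 (SE 0.31, q-value 7.47e-118), from 2494 estimated counts (2143 to 2904) to 15.8 (13.5 to 18.5). The other 4 *APELA* transcripts each fell to under 1 estimated count, from between 16.2 and 73.2 at CP, and APELA-205 was at 0 in all 3 CM libraries.

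*KDR* was first listed here. KDR-204, annotated without a defined coding sequence, was its highest transcript and fell by 2.84 (SE 0.50, q-value 2.98e-07), from 4237 estimated counts (3318 to 5410) to 593 (464 to 758). The coding transcript KDR-201, with 1356 codons, fell by 3.79 (SE 0.57, q-value 1.18e-09), from 2938 (2218 to 3890) to 212 (160 to 280). Both transcripts have 30 exons, and the split of reads between such similar transcripts is an estimate. Added together, they went from 7174 to 805 estimated counts. FLT1-201 fell by 1.58 (SE 0.42, q-value 0.00197), from 350 to 117, and the short *FLT1* forms were not listed.

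PDGFRA-201 fell by 3.004 (SE 0.32, q-value 7.84e-19), from 6442 estimated counts (5502 to 7542) to 803 (686 to 940). PDGFRB-201 fell by 4.51 (SE 0.44, q-value 2.02e-22), from 1258 (1013 to 1563) to 54.8 (44.02 to 68.2). The 4 minor *PDGFRA* transcripts were called lower too, with changes between -7.18 and -2.84. PDGFRA-208, annotated as a target of nonsense-mediated decay, had the widest spread of the member entries, a residual SD of 2.27, with 468 estimated counts at CP and 5.72 at CM.

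KIT-201 fell by 3.65 (SE 0.31, q-value 2.48e-30), from 921 estimated counts (792 to 1070) to 73.0 (62.7 to 85.0). KIT-202 fell by 7.54 (SE 1.44, q-value 3.32e-06), from 250 (123 to 507) to 0.840 (0.160 to 2.22). The share of KIT-202 was 21.4% of the listed *KIT* transcripts per kilobase at CP and 1.14% at CM. KIT-202 had a residual SD of 1.77, well above the 0.376 of KIT-201, its CM level was under 3 counts, and the difference between the transcripts was not tested.

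**Figure D3:**
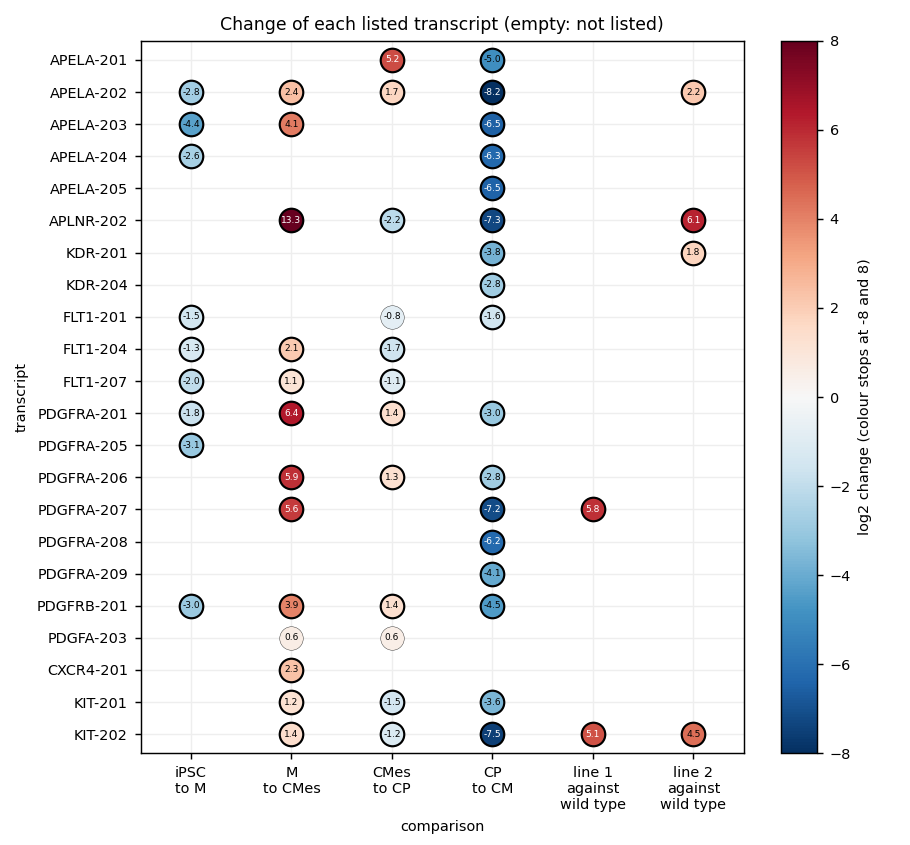
Log2 change of each of the 22 listed transcripts in each of the 6 comparisons, as the number and the colour of each dot; a thick outline marks a called change, a thin one a listed change under the fold limit, and an empty place a transcript that was not listed. The 17 dots in the column from CP to CM are all below 0, and the 6 dots of the *UBE2B*-/- lines are all above 0.

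The order of the genes changed with the stage. Levels were compared per kilobase of the leading listed transcript, within 1 table at a time. In the table from M to CMes, *KIT* led at M with 241 estimated counts per kilobase, followed by *APELA* at 189 and *PDGFA* at 142, each less than 1 standard error from the gene above it. *PDGFRB*, *PDGFRA* and *APLNR* closed the order at M, at 6.19, 4.84 and 0.203.

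At CMes, in the same table, *APLNR* led with 3415 estimated counts per kilobase, 1.74 standard errors above *APELA* at 994. In the table from CMes to CP, *APLNR* led at CMes with 3437, 8.03 standard errors above *APELA* at 1000. In the table from M to CMes, *CXCR4* at 439 and *PDGFRA* at 421 were 0.169 standard errors apart at CMes. At CP, in the table from CMes to CP, *APELA* led with 3223, ahead of *PDGFRA* at 1141 by 7.63 standard errors, followed by *APLNR* at 770. *KDR* was not listed in that table. In the table from CP to CM, *KDR* at 771 lay between *PDGFRA* at 1010 and *APLNR* at 681.5 at CP. The gaps were 0.928 and 0.430 standard errors. This place of *KDR* is that of KDR-204, which has no defined coding sequence. The coding KDR-201 had 504 at CP, below *APLNR*.

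At CM, *PDGFRA* and *KDR* were the highest of the 7 listed genes, with 126 and 108 estimated counts per kilobase and 0.527 standard errors between them. The value of *KDR* is again that of KDR-204, and the coding KDR-201 had 36.3. *FLT1* and *KIT* followed at 16.4 and 14.2, then *APELA* at 9.68, *PDGFRB* at 9.61 and *APLNR* at 4.32. *APLNR*, the highest at CMes, was thus the lowest of the listed genes both at M and at CM.

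For transcripts listed at 3 or more transitions, the most similar transcripts of other genes were sought by the Euclidean distance between their log2 changes. PDGFRA-201 was compared with 397 transcripts listed at all 4 transitions, and the nearest was one of *SMAD6*, an inhibitory SMAD, at a distance of 0.80. *HAPLN1* followed at 1.21. *SMAD6* changed by -1.45, 5.99, 0.88 and -3.17 over the 4 transitions, against -1.80, 6.42, 1.43 and -3.004 for PDGFRA-201.

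PDGFRB-201 was nearest to *DUSP6* at 1.64, and APELA-202 to *EDNRB*, the endothelin receptor B gene, at 1.74. KIT-201, listed at 3 transitions, was nearest to *NUSAP1* at 0.48 among 1327 transcripts. FLT1-207 and FLT1-204, each compared over the first 3 transitions, were nearest to *KCNK5* at 0.44 and to *TMEM121B* at 0.36. APLNR-202 had no close neighbour, as the nearest was *LGR5* at 3.99 and *SOX17*, an endoderm transcription factor gene, stood at 4.19. From M to CMes, APLNR-202 changed by 13.30 and *LGR5* by 9.69. The value of APLNR-202 depends on the added 0.5, and so do these distances. These distances describe patterns over shared libraries.

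The partner genes of the same pathways moved less uniformly. The list held 15 genes, VEGF and PDGF ligands, the VEGF receptor *FLT4*, the neuropilin co-receptors, *PDGFRL*, the CXCR4 ligand *CXCL12*, its other receptor *ACKR3* and the KIT ligand *KITLG*, and 14 of them had a listed transcript. By gene, the transition from iPSC to M had 1 called higher and 3 lower. The transition from M to CMes had 5 higher and 3 lower. There were 6 higher and 2 lower genes at the step to CP and 7 higher and 3 lower at the step to CM. Shares over all features are known by transcript, as given above for each transition, and not by gene, so these counts are a description. From M to CMes, *VEGFA* was counted by the retained-intron VEGFA-215. From CMes to CP, *KITLG* was counted by KITLG-206, annotated as a target of nonsense-mediated decay. The median log2 change of the listed partner transcripts was -1.90, 1.59, 1.87 and 1.502 over the 4 transitions, against -0.47, 0.57, 0.40 and 0.63 for all listed transcripts.

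From CP to CM, 6 VEGF, PDGF and chemokine ligand genes of this list had their leading transcript called higher, and so did the co-receptor *NRP1*, with 3 transcripts called higher. NRP1-206 rose by 0.86 (SE 0.32, q-value 0.0392), from 1776 to 3232 estimated counts, and NRP1-204 by 1.53 (SE 0.20, q-value 2.91e-12), from 363 to 1047. Its paralog *NRP2* and the chemokine receptor *ACKR3* fell, NRP2-203 by 1.63 (SE 0.53, q-value 0.0152). VEGFB-201 rose by 1.25 (SE 0.20, q-value 4.65e-09), from 218 to 521 estimated counts, and VEGFC-202 by 1.41 (SE 0.22, q-value 4.54e-09), from 128 to 340. PDGFD-202 rose by 4.22 (SE 0.28, q-value 3.24e-50), from 90.2 to 1692. PDGFC-201, annotated as a target of nonsense-mediated decay, rose by 2.39 (SE 0.51, q-value 4.77e-05), from 144 to 757. The coding PDGFC-203 rose by 1.94 (SE 0.31, q-value 8.62e-09), from 69.6 to 268. VEGFA-206 rose by 1.48 (SE 0.44, q-value 0.00606), while the retained-intron VEGFA-212 changed by -0.82 (SE 0.27), under the fold limit. The placental growth factor transcript PGF-206, a VEGF receptor ligand, fell by 5.55 (SE 1.57, q-value 0.00375), from 204 to 3.86 estimated counts.

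*CXCL12* and *ACKR3*, ligand and scavenger receptor of one chemokine, moved against each other. CXCL12-201 fell by 1.67 (SE 0.42) from M to CMes, where CXCR4-201 rose, and later rose by 4.98 (SE 0.70, q-value 4.81e-11) from CP to CM, from 115 to 3632 estimated counts. ACKR3-201 rose from M to CMes, from 26.0 to 74.4 estimated counts, and rose by 2.92 (SE 0.23, q-value 1.505e-34) from CMes to CP, to 570 estimated counts, and fell by 2.00 (SE 0.21) from CP to CM.

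PDGFB-201, a ligand of both PDGF receptors, fell by 3.82 (SE 0.38, q-value 5.04e-21) from iPSC to M, from 323 to 22.4 estimated counts. It rose by 3.58 (SE 0.42, q-value 1.68e-15) from M to CMes and by 1.10 (SE 0.36, q-value 0.0267) from CMes to CP. KITLG-205, a transcript of the KIT ligand, fell by 1.93 (SE 0.55, q-value 0.00829) from M to CMes, the transition at which *KIT* rose.

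NRP2-204, a co-receptor transcript, rose by 2.30 (SE 0.15, q-value 1.45e-50) from M to CMes and by 1.19 (SE 0.23) from CMes to CP. FLT4-201 rose by 1.17 (SE 0.32, q-value 0.00926) from iPSC to M, while *FLT1* fell, and it fell by 1.51 (SE 0.32) from M to CMes, while *FLT1* rose.

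**Figure D4:**
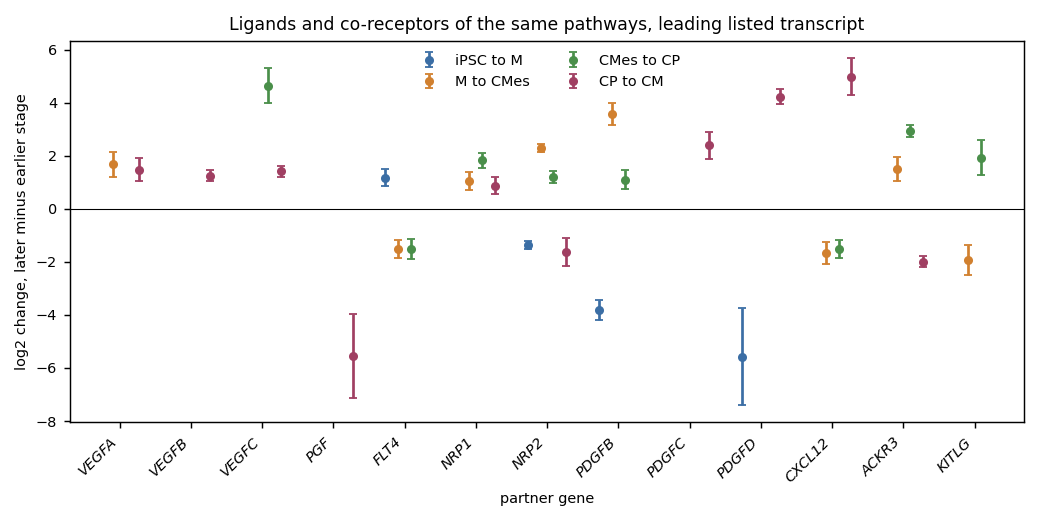
Log2 change, later minus earlier stage, with 1 SE, of the leading listed transcript of 13 partner genes at the 4 stage transitions, each transition in 1 colour; a gap means not listed. From CP to CM, *CXCL12* and *PDGFD* lie highest, at 4.98 and 4.22, and *PGF* lowest, at -5.55.

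The *UBE2B*-/- lines were compared with wild-type CMs to ask what the loss of this H2B ubiquitination enzyme changes at the CM stage. *UBE2B* RNA is only a partial check of the labels, because the guides were placed near the transcriptional start and the lines were screened by sequence. UBE2B-202, a transcript with no defined coding sequence, was lower in line 1 by 1.91 (SE 0.53, q-value 0.0113), and no *UBE2B* transcript was listed for line 2. No member was called lower in either line.

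Line 1 had 2 listed member transcripts, from *PDGFRA* and *KIT*, and line 2 had 4, from *APELA*, *APLNR*, *KDR* and *KIT*. All 6 entries were called higher and 0 lower. Over all transcripts tested, 2.18% were called higher and 1.72% lower in line 1, and 2.46% higher and 1.53% lower in line 2. The called members are 2.5% of the annotated transcripts of these genes in line 1 and 5% in line 2, so the count in line 1 is near the background. With a t distribution on 6 degrees of freedom, 0 were called in either line, and at a q-value limit of 0.01 the counts were 0 and 1. Both lines share the same 3 wild-type CM libraries, and these are also the CM libraries of the transition from CP to CM.

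KIT-202, the *KIT* form without the 12 bases, was the only member transcript listed for both lines. Wild-type CMs had 0.900 estimated counts of it, while line 1 had 46.6 and line 2 had 30.9. The change was 5.07 (SE 1.40, q-value 0.0113) in line 1 and 4.49 (SE 1.40, q-value 0.0334) in line 2, with a residual SD of 1.60. The mean of both lines was 4.78 (SE 1.21), given as a description, since the transcript was chosen by its listing in both. Line 2 differed from line 1 by -0.59, with a 95% interval from -3.33 to 2.15 and a q-value of 1.00 over the 1992 transcripts listed for both lines, so a sizeable difference in either direction was not detectable. The wild-type level was under 3 counts, and KIT-201 was listed for neither line.

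For a transcript listed for 1 line, the level in the other was recovered from the variance columns and the wild-type CM mean of the CP to CM table. The level of APLNR-202 was 18.2 estimated counts in wild-type CMs, against 699 for line 1 and 1318 for line 2. Its change in line 2 was 6.14 (SE 1.77, q-value 0.0171) with a residual SD of 2.16, the largest among the member entries of the lines. The recovered change in line 1 was 5.22, which was not listed. In the CP to CM table, whose scale differs by 1.15-fold, the same transcript had 2494 estimated counts in wild-type CPs.

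For APELA-202, wild-type CMs had 27.2 estimated counts, line 1 had 48.7 and line 2 had 123. The change in line 2 was 2.16 (SE 0.57, q-value 0.00685), and the recovered change in line 1 was 0.83. Line 2 lay above line 1 by 1.32 (95% interval 0.21 to 2.44), in a transcript listed for line 2 alone, so the difference is given as a description. For the other 3 transcripts listed for 1 line, the same interval ran from -0.63 to 1.52 for KDR-201, from -2.55 to 4.38 for APLNR-202 and from -5.16 to 1.73 for PDGFRA-207.

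KDR-201 stood at 244 estimated counts in wild-type CMs, at 621 for line 1 and at 846 for line 2. It was called in line 2 with a change of 1.79 (SE 0.55, q-value 0.0291), and the recovered change in line 1 was 1.35. The retained-intron transcript PDGFRA-207 was at 0 in wild type, with 27.8 estimated counts in line 1 and 8.13 in line 2. Its fitted change in line 1 was 5.82 (SE 1.76, q-value 0.0261), and it was at least 9.28-fold higher there at the floor of 3 counts. The full-length PDGFRA-201 was listed for neither line.

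**Figure D5:**
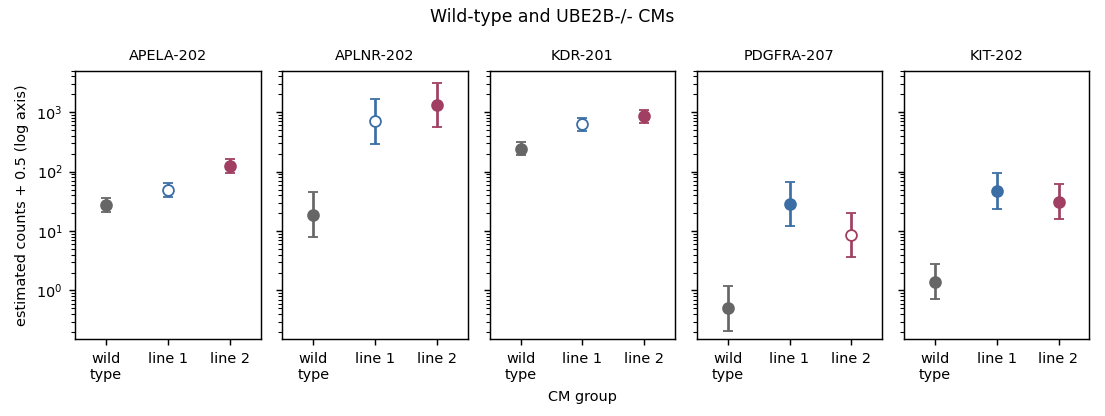
Levels of the 5 member transcripts listed for a *UBE2B*-/- line, as estimated counts plus 0.5 on a log axis, in CMs of wild type and both lines; points are group means of 3 libraries, bars 1 SE of the fit, and open points are levels recovered for the line without a listing. In all 5, both lines lie above wild type, with *APLNR* at 18.2, 699 and 1318 estimated counts. Each of the 5 is shown because it was called in at least 1 line, and all of these calls were higher. Both lines are set against the same wild-type libraries, so their shared direction is a description.

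Other cell type markers moved with these values. The mesenchymal and mural list had 3 of 10 genes called higher in line 1 and 6 of 10 in line 2, with *COL3A1* higher by 3.51 (SE 0.79) and 4.81 (SE 0.79). Of the cardiomyocyte list, 4 of 6 were called lower in line 1 and 5 of 6 in line 2, with *TNNT2* lower, at -1.48 (SE 0.42) and -1.77 (SE 0.42). *EGFL7* alone of 10 endothelial and blood progenitor markers was listed, higher by 1.72 and 1.70, and of 6 endoderm markers 2 were higher in line 1 and 1 in line 2. The pluripotent list and the primitive streak list had 0 of 5 genes listed in either line. The part of cell composition in the higher member levels was not tested.

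Of the 15 partner genes, 2 were called higher and 1 lower in line 1, and 4 higher and 1 lower in line 2. The shares over all transcripts tested in each line are given above, and a share by gene is not known. ACKR3-201 rose by 2.45 in line 1 and 2.53 in line 2 (SE 0.42, q-values 2.78e-06 and 8.58e-07), from 146 estimated counts to 797 and 843. PDGFC-203 rose by 1.66 and 1.47 (SE 0.38, q-values 0.00129 and 0.00604), from 309 to 979 and 859. NRP1-210 fell by 1.46 and 1.59 (SE 0.43, q-values 0.0221 and 0.00937), from 164 to 59.5 and 54.2. *PDGFRL* and *NRP2* were called higher in line 2, where PDGFRL-201 changed by 1.66 (SE 0.47, q-value 0.0153) and NRP2-206 by 1.88 (SE 0.61, q-value 0.0473).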

How the data were processed

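Reads were trimmed by the authors (FASTX-Toolkit), transcripts were quantified by Kallisto against hg38, and groups were compared by the Wald test of Sleuth. They deposited 6 tables of transcripts with a q-value up to 0.05. As deposited, a row holds p-value and q-value, the effect b and its standard error as natural log values, the mean natural log of estimated counts plus 0.5, and variance scores. No column (0) gives a value per sample, so depth is unknown and no new fit could be made. These columns are the authors' own comparisons, and they were used because the tables hold nothing else.

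Log2 changes were b divided by the natural log of 2. Group means came from b and the overall mean, minus 0.5. The number tested, 65457 to 71328, came from p-values, ranks and q-values. The limit on absolute b was log2(1.5), a fold of 1.79. Transcripts were matched to GENCODE 44 without version. Scales differ between tables. For transcripts listed for 1 line, the variance columns leave 2 values for the other, and the wild-type CM mean chose between them. The lines' mean had 0.866 times the standard error of 1 line. The recovery of group means and of the 2 possible values was tested on simulated data, and the choice between those 2 was not.

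The named transcripts were every listed transcript of the members and partners, the highest mean speaking for a gene. Members and lists were chosen with earlier results of these data known. Alternatives were other fold and q-value limits, t distributions, a transcript's own variance, sums over transcripts and levels with the 0.5 kept. Python 3.11.15, pandas 2.3.3, NumPy 2.4.6, SciPy 1.17.1 and Matplotlib 3.10.9 were used.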

Additional observations from a re-analysis of the deposited data

How the results depend on the processing

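No paired analysis was possible because the tables hold no value per library, and for the same reason no replicate could be left out in turn, so whether 1 library decides a value is not known here. Looser fold limits, of 1.5-fold on the natural-log scale and with no fold limit, gained 2 and 3 of 51 stage entries and 0 entries of the lines. A looser limit cannot remove a call, and no stricter fold limit was tried. At a q-value limit of 0.01, 44 of 51 stage entries kept their call, while the calls in line 1 went from 2 to 0 and in line 2 from 4 to 1, that of APELA-202. The distribution mattered most. With a t distribution on 4 degrees of freedom and the deposited standard error, 0 member transcripts were called lower from iPSC to M, 0 higher from M to CMes, 0 in either direction from CMes to CP, and 3 lower from CP to CM, in place of 9, 12, 5 and 5, and 17. With a transcript's own residual variance these were 2, 7, 2 higher and 1 lower, and 12. In the lines 0 calls were left under either alternative, on 6 degrees of freedom. The mean change of 4.78 of KIT-202 over both lines then had a q-value of 0.294, in place of 0.00303, in a transcript chosen by its listing in both, and its difference between the lines stayed uncalled. A t distribution on so few degrees of freedom leaves out the information that Sleuth shares between transcripts. When the listed transcripts of a gene were summed, 25 of 26 gene changes moved by less than the residual SD. The exception was *PDGFRA* from iPSC to M, at -2.12 in place of -1.80. For *PDGFRB*, *APLNR*, *PDGFA* and *CXCR4*, with 1 listed transcript at a transition, the sum is that transcript and could not move. The listed transcripts of each gene moved the same way at a transition, so no direction could turn. Transcripts that were not listed are absent from the sums. Keeping the 0.5 in the levels changes only those of a few counts. Levels under 3 counts, found in 13 of 51 stage entries, limit the folds, not the directions.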
